A study of Drosophila melanogaster with 3 samples.

Results

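The axon guidance genes of Drosophila were examined for binding of the chromatin protein Row in whole embryos. The set was a list of 40 gene symbols, of which 39 were found in the Ensembl BDGP6 annotation, out of 13968 protein-coding genes in all. The symbol conn was not found and was skipped. Connectin is named Con there, and its summits are given only at the close of the account of gene bodies. The 39 genes lie on every major arm, with 10 on 2R, 9 on 3L, 8 on 2L, 6 on X, 4 on the small chromosome 4 and 2 on 3R. They are long, with a median length of 31.7 kb against 2.16 kb for all protein-coding genes, and 25 of them span at least 20 kb.

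Axon guidance genes encode the ligands, receptors and cytoplasmic partners that steer growing axons. Secreted Slit, made at the midline, repels axons through Robo receptors, while Netrins act through Frazzled and Unc-5. Semaphorins signal through Plexins, and adhesion molecules, Ryk-type Wnt receptors and receptor tyrosine phosphatases add further cues. Adaptors and kinases carry them to the actin cytoskeleton. Row, whose name stands for relative of woc, has zinc fingers and is known to associate with WOC and the heterochromatin protein variant HP1c.

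The data were ChIP-seq peak lists, in which each peak marks a stretch of DNA enriched by the immunoprecipitation. All samples came from embryos aged 0 to 24 h of the transgenic strain row-GFP, which carries Row fused to eGFP, and an anti-GFP antibody was used. The 3 biological replicates formed the only group, from separate biosamples of the same strain, with no other genotype, stage or treatment. The labels do not state which promoter drives the fusion or whether untagged Row was also present. Because whole embryos were used, strong binding in a few cells and weak binding in many cannot be told apart.

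On the chromosome arms, the conservative list held 10483 peaks. Its intervals rank replicates 1 and 2 against each other, while per the file headers it derives from alignments of all 3 replicates. The thresholded lists of replicates 1, 2 and 3 held 10959, 8564 and 7608 peaks. IDR, the irreproducible discovery rate, set the threshold of these lists at 0.01. Read numbers were not used, so the depth behind each list is unknown. A promoter summit is a peak's highest point within 500 bp of any start site (TSS) of the gene, and a gene body summit lies inside the gene and farther than that from each of its TSSs. Nearest to that limit on the inside were summits at trio (484 bp) and dnt (442 bp), and on the outside summits at Ptp99A (666 bp) and trio (711 bp). Signal values are the enrichment per peak as the authors deposited it, and are read within a list. The design holds no comparison between conditions, so counts, ranks and spreads over replicates are given with no test.

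Row summits lay within 500 bp of a TSS in 16 of the 39 genes (41.0%) in the conservative list, 21 summits in all. Such summits were found in 36.4% of all protein-coding genes and 41.7% of the 1020 genes of at least 20 kb, shares close to that of the members. Summits inside the gene body were found in 27 of the 39 (69.2%). That compares with 12.9% of all protein-coding genes and 68.7% of the genes of at least 20 kb. Among the 25 members of at least 20 kb the share was 84.0%. The 120 gene body summits amounted to 8.20 per 100 kb of gene, against 5.24 in the genes of at least 20 kb and 4.65 in all.

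The replicates differed at the promoters. Replicate 1 had a promoter summit in 29 of the 39 genes (74.4%), replicate 2 in 12 (30.8%) and replicate 3 in 16 (41.0%), a mean of 19 ± 8.89 genes (SD, n = 3). Of all protein-coding genes, 40.3%, 32.0% and 32.8% had one in replicates 1, 2 and 3. Of the genes of at least 20 kb, the shares were 49.7%, 37.2% and 37.4%. The axon guidance genes were therefore above the background in replicate 1, close to it in replicate 2 and above that of all genes in replicate 3. Among the 25 members of at least 20 kb, 18 (72.0%) had a promoter summit in replicate 1, 9 (36.0%) in replicate 2 and 11 (44.0%) in replicate 3.

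**Figure D1:**
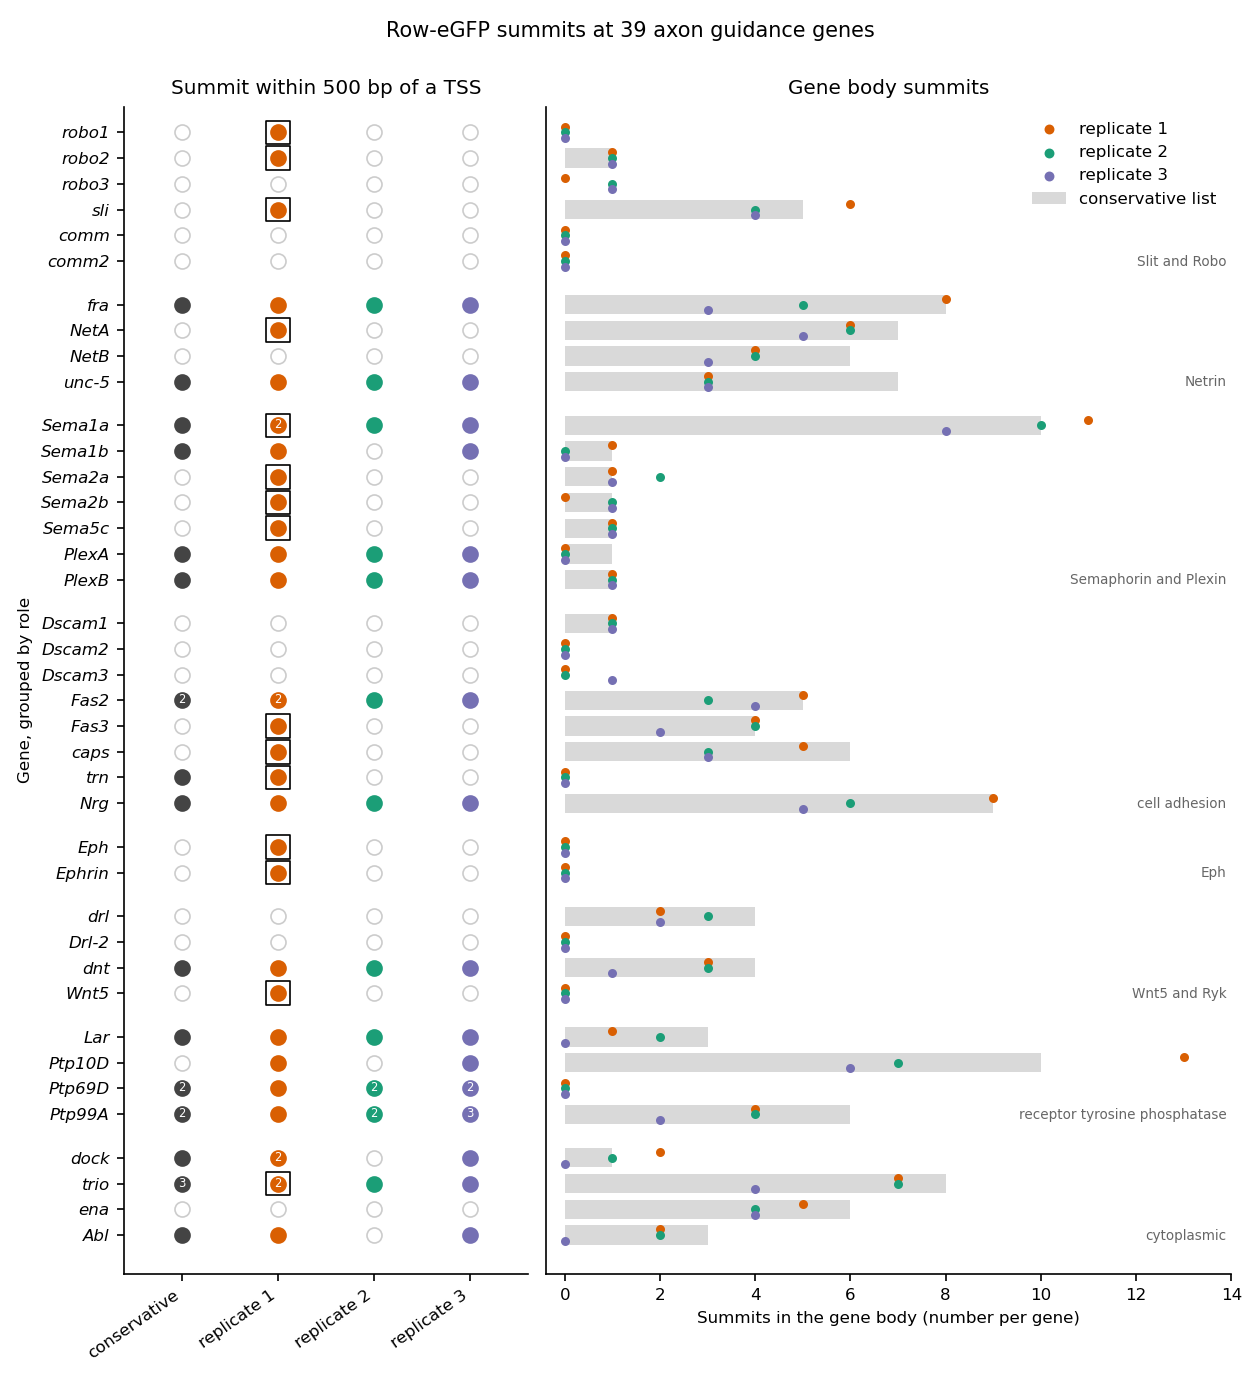
Row summits at each of the 39 axon guidance genes, by role. Left, filled circles mark genes with a promoter summit in the conservative list and in each replicate, a number inside gives the count where it exceeds 1, and a square marks a gene with a promoter site in replicate 1 alone. Right, grey bars give gene body summits in the conservative list and points those in each replicate. Squares stand beside 15 genes, and bars reach 10 summits at Sema1a and Ptp10D.

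Sequences of 201 bases around the summit are shown for the 3 strongest promoter summits and for strong gene body summits of Fas3 and Sema1a. The PlexB sequence has 172 bases, without those inside the gene, while the trio, Fas3 and Sema1a windows lie inside their genes and are whole. All sequences were read from the RefSeq FASTA of dm6 on the strand of the gene, 5′ to 3′. Capitals mark matches, on either strand, to the motifs searched. In PlexA these are the DNA replication-related element TATCGATA, in PlexB 4 copies of CGATA, in trio and Fas3 a match to the TATA box letters TATAAA, and in Sema1a a match to each of the latter.
PlexA promoter, chr4:1027149-1027349, minus strand: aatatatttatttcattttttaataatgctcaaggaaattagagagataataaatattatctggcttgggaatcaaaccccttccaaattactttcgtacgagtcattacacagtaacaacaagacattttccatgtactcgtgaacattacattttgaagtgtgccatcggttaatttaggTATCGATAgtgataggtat
trio internal promoter, chr3L:1007901-1008101, minus strand: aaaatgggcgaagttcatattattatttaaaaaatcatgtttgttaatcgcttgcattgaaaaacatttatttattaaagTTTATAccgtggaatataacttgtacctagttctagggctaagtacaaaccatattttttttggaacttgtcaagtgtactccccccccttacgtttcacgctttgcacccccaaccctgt
PlexB promoter, chr4:43779-43950, minus strand: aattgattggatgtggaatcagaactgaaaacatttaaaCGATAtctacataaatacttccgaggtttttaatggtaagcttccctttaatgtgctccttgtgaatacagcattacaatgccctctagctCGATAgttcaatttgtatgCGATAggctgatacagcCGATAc
Fas3 gene body, chr2L:18325209-18325409, plus strand: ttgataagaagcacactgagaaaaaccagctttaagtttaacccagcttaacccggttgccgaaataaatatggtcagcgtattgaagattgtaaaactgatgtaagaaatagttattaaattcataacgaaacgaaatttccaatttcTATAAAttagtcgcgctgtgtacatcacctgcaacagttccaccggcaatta
Sema1a gene body, chr2L:8575048-8575248, plus strand: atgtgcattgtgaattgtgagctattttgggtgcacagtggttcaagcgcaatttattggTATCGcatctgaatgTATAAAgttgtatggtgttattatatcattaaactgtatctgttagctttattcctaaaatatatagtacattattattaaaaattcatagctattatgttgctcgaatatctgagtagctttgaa

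Among the Semaphorins and Plexins, 4 of 7 genes had a promoter summit in the conservative list. PlexA, the receptor for the transmembrane Semaphorin Sema1a, had the strongest promoter summit of the set, with a signal value of 1525 and rank 562 of 10483, 148 bp upstream of its TSS. Its signal values in replicates 1, 2 and 3 were 342, 588 and 572, at ranks 1248, 485 and 415. PlexB, the receptor for the secreted Semaphorins, had a summit 72 bp upstream with a signal value of 1272 and replicate values of 329, 413 and 529. Both Plexin promoters thus stood high in every list, and both genes lie on chromosome 4.

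Sema1a itself had a promoter summit of 1098 (rank 1026), 83 bp upstream of its first TSS, with replicate values of 448, 344 and 313. Its gene body held 10 summits in the conservative list and 11, 10 and 8 in the replicates. The strongest, 31.8 kb from the nearest TSS, had a signal value of 845 and replicate values of 315, 317 and 236. Sema1b had a weak promoter summit of 81.5 (rank 9902) that overlapped no replicate's thresholded peak, while replicates 1 and 3 listed a summit at another of its 3 TSSs, with signal values of 58.0 and 45.6. Sema2a and Sema2b, the secreted ligands, and Sema5c each had a promoter summit in replicate 1 and in none of the other 3 lists, and 1 gene body summit each in the conservative list.

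All 4 genes of the Netrin pathway had gene body summits, 28 in all or 15.9 per 100 kb. fra, the attractive Netrin receptor Frazzled, held 8, and among them the strongest gene body summit of the set, with a signal value of 1235 (rank 843) at 2R, 12543822, which lies 14.8 kb downstream of its TSS. The TSS of CG33752 was nearer to that summit, at 1867 bp. The replicate values at that peak were 481, 444 and 308. The next strong fra sites had signal values of 940 and 795, both also listed in all 3 replicates. They too lay nearer to the TSS of CG33752, at 4863 and 2075 bp, than to that of fra.

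At its promoter, fra had a summit of 402 with replicate values of 133, 133 and 148. unc-5, the repulsive Netrin receptor, had a promoter summit of 1062 (rank 1095) at an internal TSS. Its replicate values were 351, 356 and 348, at ranks 1191, 1162 and 1040 of their lists. Its 7 gene body summits were weaker, between 82.3 and 402, and each replicate listed 3. NetA and NetB, the secreted ligands, had no promoter summit in the conservative list, but 7 and 6 gene body summits. The strongest of NetA reached 757, 26.2 kb from its nearest own TSS, with replicate values of 293, 240 and 211. The TSS of sbm was nearer to that summit, at 25018 bp. NetB held the single gene body summit of the set that lay in an exon, in its 3′ UTR, with a signal value of 561.

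In the Slit and Robo group no gene had a promoter summit in the conservative list, and gene body summits were found in sli and robo2 alone among its 6 genes. sli, the midline repellent, had 5, and the strongest had a signal value of 806 (rank 1669) with replicate values of 292, 308 and 209. A weaker sli summit of 106, listed in replicate 1, lay 282 bp from the TSS of CG33463, the 1 member gene body summit within 500 bp of another protein-coding TSS. robo2 had 1 gene body summit, with a signal value of 235 and replicate values of 93.5, 74.5 and 69.2. robo3 had none in the conservative list and 1 in each of replicates 2 and 3, which lay at different positions, with signal values of 78.4 and 49.6. comm, which removes Robo from the growth cone surface, and its relative comm2 had no summit in any of the 4 lists.

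The adhesion molecules varied. Nrg, the fly Neuroglian, had a promoter summit of 218 with replicate values of 120, 53.5 and 47.8, and 9 gene body summits that were packed into 10.9 kb of its 37.8 kb. The strongest of these had a signal value of 451 and was listed in all 3 replicates. All 9 lay nearer to the TSS of PIP82 (2349 to 13223 bp) than to any TSS of Nrg (14306 to 25180 bp). Fas2, which holds axon bundles together, had a pair of neighbouring promoter summits of 329 and 98.8 and 5 gene body summits. The stronger promoter summit lay in peaks with replicate values of 118, 156 and 76.2.

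Fas3, a homophilic adhesion molecule, had no promoter summit in the conservative list but a gene body summit of 975 (rank 1269), 5.21 kb downstream of its TSS, with replicate values of 302, 349 and 315. caps, a leucine-rich repeat protein of target recognition, had 6 gene body summits of at most 286 and no conservative promoter summit. Its relative trn had a weak promoter summit of 95.8 (rank 9743). Of the Dscam genes, which encode recognition molecules of self-avoidance and targeting, Dscam1 had 1 gene body summit of 219, Dscam3 had 1 in replicate 3, and Dscam2 had no summit in any of the 4 lists.

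The receptor tyrosine phosphatases had promoter summits in 3 of 4 genes. Ptp69D had a pair, 252 and 50 bp upstream, with signal values of 845 and 412, and the stronger was nearer to the TSS of SmD1, 82 bp away, than to its own. Lar had a summit of 768 at an internal TSS, with replicate values of 308, 243 and 201. Ptp99A had summits of 528 and 150 at internal TSSs, and the first was listed in all replicates with values of 240, 158 and 139. Ptp10D had no promoter summit in the conservative list, although replicates 1 and 3 listed one, with signal values of 98.1 and 57.5. Its gene body held 10 conservative summits and 13, 7 and 6 in the replicates.

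Among the Ryk-type Wnt receptors, dnt had a promoter summit of 494 with replicate values of 195, 157 and 134, and 4 gene body summits. drl (Derailed), the receptor through which Wnt5 repels commissural axons, had 4 gene body summits and no promoter summit in any of the 4 lists, and its strongest reached 491 with replicate values of 175, 206 and 115. Drl-2 had no summit in any of the 4 lists. The ligand Wnt5 and the genes Eph and Ephrin, a receptor kinase and its ligand, had a promoter summit in replicate 1 and no summit in the other 3 lists.

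The cytoplasmic group had the highest density of gene body summits, 18.0 per 100 kb. trio, which encodes a guanine nucleotide exchange factor for Rac, had the second strongest promoter summit of the set, with a signal value of 1296 (rank 771) at an internal TSS and replicate values of 495, 540 and 321. It also held 8 gene body summits, of which the strongest had signal values of 741 and 693. Both lay slightly nearer to the TSS of CG9205 (3594 and 1910 bp) than to a TSS of trio (3772 and 2088 bp). The trio promoter summit of 124 was nearer to CG9205, whose TSS was 14 bp away, and it overlapped no replicate's peak.

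ena, an actin regulator, had 6 gene body summits and none at its promoter, and the strongest had a signal value of 870 (rank 1512) and replicate values of 274, 308 and 286. Abl, the tyrosine kinase that works against Ena in guidance, had a promoter summit of 250 with values of 124 and 44.6 in replicates 1 and 3. dock, an adaptor downstream of guidance receptors, had one of 193 with values of 90.2 and 62.9 in the same replicates. Replicate 2 listed no promoter peak at either gene. The dock summit lay 51 bp from its own TSS and 57 bp from that of CG3862.

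**Figure D2:**
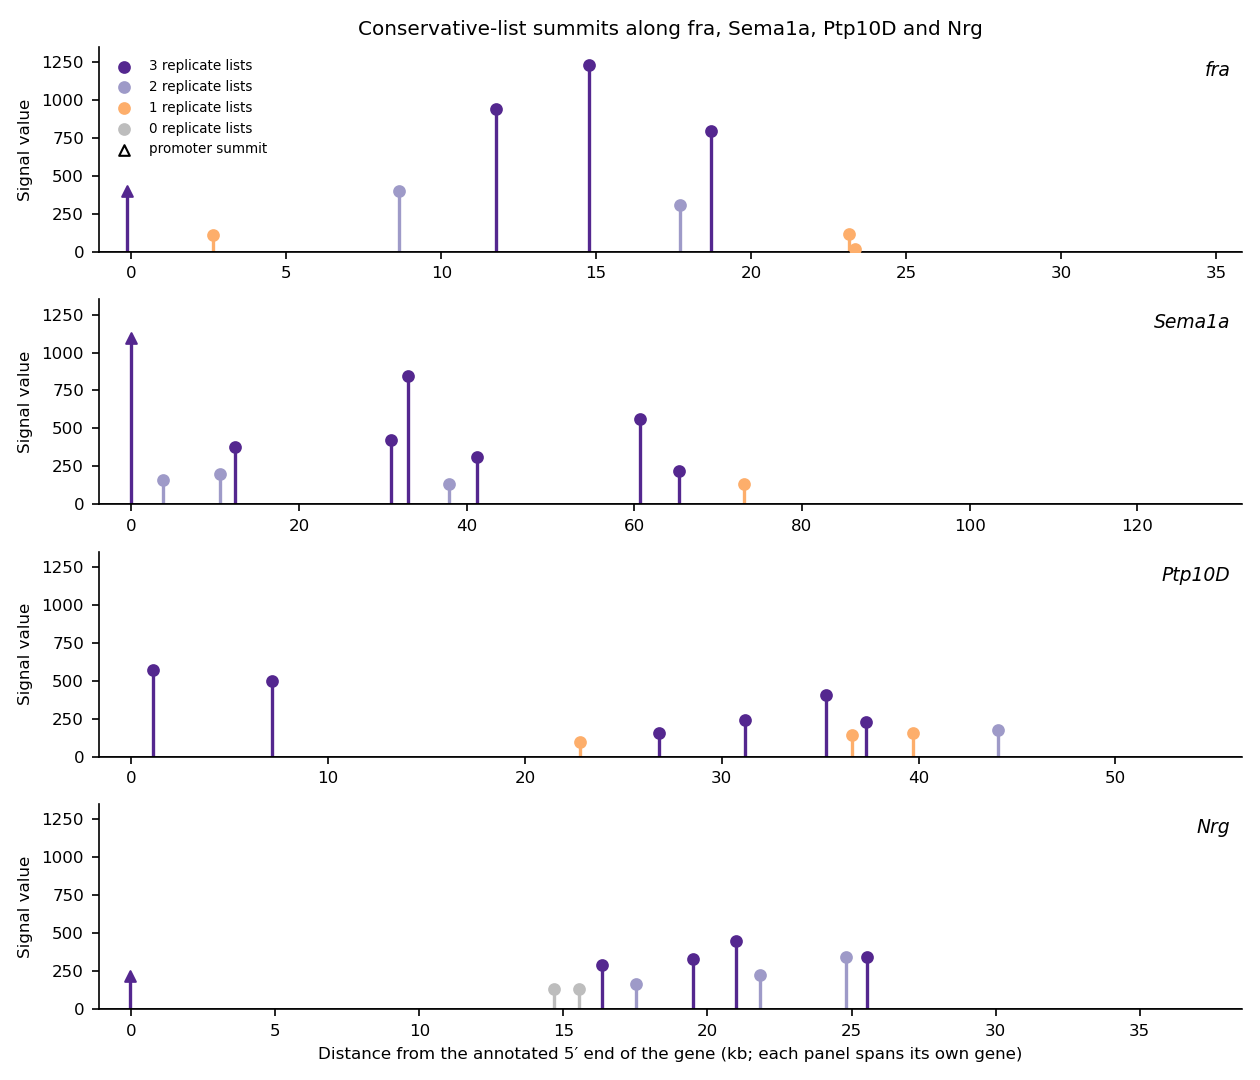
Positions and signal values of conservative-list summits along fra, Sema1a, Ptp10D and Nrg. The x axis is the distance from the annotated 5′ end of each gene in kb, the height is the deposited signal value, triangles are promoter summits, and colour gives the number of replicates with an overlapping thresholded peak. The fra summits of 940, 1235 and 795 lie together in the middle of the gene and are listed in 3 replicates, and the 9 gene body summits of Nrg lie in 10.9 kb.

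Gene body summits were almost all intronic, 119 of 120, and none was in a coding exon. Their median distance from the nearest own TSS was 11856.5 bp, and some lay nearer to the TSS of another gene. The intronic share over the gene body summits of all genes was not counted, so 119 of 120 is not read as a trait of the members. Counts and densities take each summit singly, and signal values went down to 5.47. Some weak summits lay close to another (signal value and gap in brackets), at fra (15.8, 199 bp), caps (5.47, 204 bp) and dnt (7.48, 206 bp). The same held at Lar (25.9, 206 bp) and trio (67.8, 225 bp). By replicate, gene body summits were found in 25, 26 and 24 members (64.1%, 66.7% and 61.5%), a mean of 25 ± 1 (SD, n = 3). These shares, which include 14 members under 20 kb, were close to the 65.7%, 67.9% and 59.7% of genes of at least 20 kb. Of all protein-coding genes, 13.0%, 11.9% and 10.5% had one. The number of summits fell with the length of the list, at 106, 89 and 67 (87.3 ± 19.6, SD, n = 3). Per 100 kb the members held 7.25, 6.08 and 4.58, and the genes of at least 20 kb held 4.93, 4.23 and 3.23, so the density was higher in the members within each of the 3 lists. Among the 25 members of at least 20 kb, 21 (84.0%) had a gene body summit in the conservative list, against the 68.7% above. In replicates 1, 2 and 3 these were 20, 22 and 21 (80%, 88% and 84%). Of the 14 members under 20 kb, 6 (42.9%) had one in the conservative list, against 8.52% of protein-coding genes under 20 kb. These shares are not matched for length, since the median was 8.41 kb in the members and 1.98 kb in that background. Per 100 kb the 14 members held 6.86 summits, from 9 in all, against 3.94. In replicates 1, 2 and 3 they held 5.33, 4.57 and 3.05, against 4.14, 3.19 and 2.70. Con, at 142 kb, had 3 gene body summits in the conservative list and 2, 4 and 0 in the replicates, with no promoter summit in any of them.

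Overlap with the replicates was looser in the gene bodies than at the promoters. Of the 120 gene body summits, 56 (46.7%) lay in peaks that overlapped all 3 replicates, against 53.8% of all gene body summits. Of the 21 promoter summits, 14 (66.7%) did so, against 74.3% of all promoter summits. A further 12 gene body (10%) and 2 promoter summits (9.52%) overlapped no replicate's thresholded peak, against 8.67% and 3.26% of all such summits. None of the 174 peaks that pass the threshold but are missing from the conservative list was a promoter or gene body summit of a member.

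**Figure D3:**
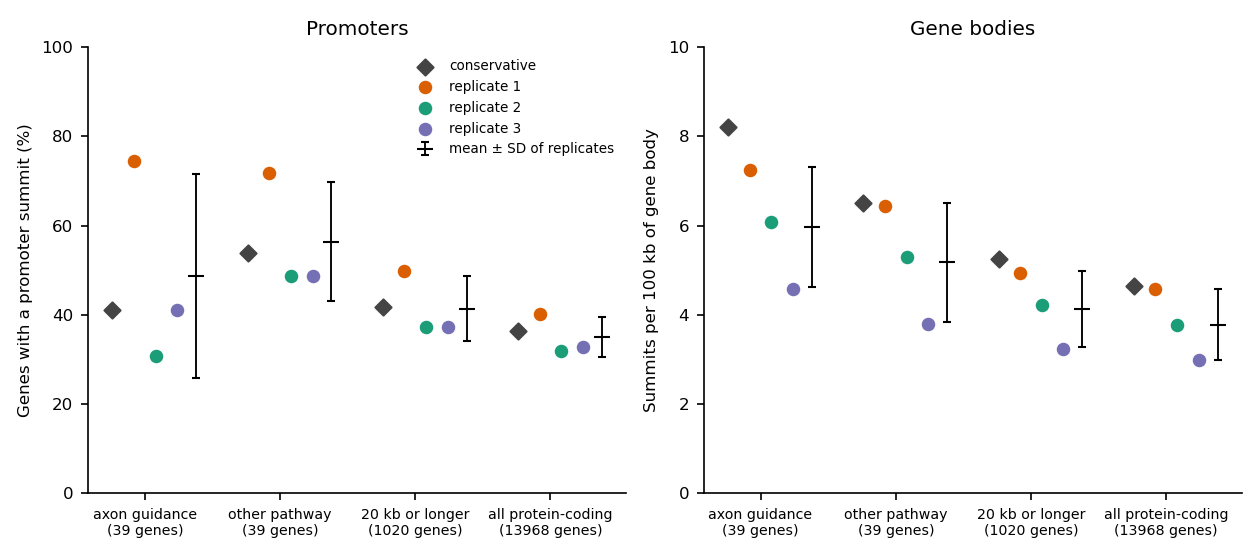
Left, percent of genes with a promoter summit, and right, gene body summits per 100 kb, for the axon guidance genes, the other pathway genes, genes of at least 20 kb and all protein-coding genes. Diamonds are the conservative list, circles the replicates, and bars the mean ± SD of the 3 replicates. The axon guidance genes reach 74.4% in replicate 1 and 30.8% in replicate 2, while all genes lie between 32.0% and 40.3%.

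Replicate 1 listed promoter summits that the other replicates did not. Counted by gene, 12 of the 39 (30.8%, against 28.5% of all genes) had a promoter summit in all 3 replicates (fra, unc-5, Sema1a, PlexA, PlexB, Fas2, Nrg, dnt, Lar, Ptp69D, Ptp99A and trio) and 4 in replicates 1 and 3 (Sema1b, Ptp10D, dock and Abl). A further 13 (33.3%) had one in replicate 1 and in neither other replicate. That pattern held for 7.22% of all protein-coding genes and 11.6% of those of at least 20 kb. The remaining 10 genes had none in any replicate (robo3, comm, comm2, NetB, Dscam1, Dscam2, Dscam3, drl, Drl-2 and ena). Over all genes, 2.57% had one in replicates 1 and 3 but not 2, and 57.3% had none in any replicate. No member had a promoter summit in replicate 2 or 3 without one in replicate 1. Such patterns were also rare over all genes, at 0.816% (replicates 2 and 3), 0.666% (replicate 2 alone) and 0.916% (replicate 3 alone).

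Counted by site, 34 member peaks of replicate 1 overlapped no thresholded peak of replicates 2 and 3. Of these, 15 were promoter summits, from 33 in all (45.5%), and 19 were gene body summits, from 106 (17.9%). Over the whole list, 21.8% of promoter summits and 23.5% of other summits were in replicate 1 alone. The share of the members was above the background at promoters and below it in gene bodies. In replicate 2, 1 of 14 promoter and 10 of 89 gene body summits (7.14% and 11.2%) were alone, against 2.78% of all promoter and 12.5% of all other summits. In replicate 3 they were 1 of 19 and 3 of 67 (5.26% and 4.48%), against 3.27% and 4.20%. The single promoter sites of both were at Ptp99A.

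The 15 promoter sites belonged to 15 genes and included many ligands and receptors. In the Slit pathway, the signal values in replicate 1 were 77.6 at robo2, 61.0 at robo1 and 38.3 at sli. NetA had 44.2. Among the Semaphorins, Sema5c had 107, a second Sema1a promoter 84.6, Sema2a 59.0 and Sema2b 40.1. The adhesion genes Fas3, trn and caps had 56.9, 54.5 and 53.3. Wnt5 had 67.7, Eph 66.8, Ephrin 59.7 and a further internal TSS of trio 62.0. The Ephrin site lay 12 bp upstream of its own TSS and 189 bp from that of ND-49.

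These were weak peaks of their list. Their median signal value was 59.7 and their median rank 8477 of 10959, and the best, at Sema5c, ranked 5113. The 18 member promoter summits of replicate 1 that overlapped another replicate had signal values from 45.9 to 495, with a median of 141 and a median rank of 3889, so the signal ranges overlap. Over all genes the medians were 58.8 for promoter summits alone and 156 for the shared ones. Of the 15 peaks, 14 had a width of 424 bp, as had 5397 of the 10959 peaks of the list. The summit lay in a 5′ UTR in 6 of the 15, and the same share over all promoter summits in replicate 1 alone was not counted.

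The ranked lists hold peaks before the threshold. Of the 15 promoter sites, 4 overlapped a peak in the ranked list of replicate 2 and 5 in that of replicate 3, and 9 (at NetA, Sema2b, Sema5c, Fas3, caps, trn, Eph, Ephrin and trio) overlapped none in either. Over all genes, of the 1142 promoter summits in replicate 1 alone, 67.3% were in the ranked list of replicate 2, 65.2% in that of replicate 3 and 21.3% in neither. All 19 gene body sites overlapped a peak in the ranked list of replicate 2, and 15 in that of replicate 3. Of all other summits in replicate 1 alone, 81.5% were in the first, 70.4% in the second and 11.8% in neither. The conservative list held 2 of the 15 promoter sites (trn and trio) and 12 of the 19 gene body sites. Over all genes it held 28.6% of such promoter summits and 49.0% of the others. The pooled list held 9 and 15, against 68.6% and 73.3%. The ranked list of replicate 1 had 64589 peaks on the arms and those of replicates 2 and 3 had 28819 and 29226, and the part that list length plays in these counts was not tested.

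The 19 gene body sites had signal values from 5.53 to 72.0 in replicate 1 and lay in introns of 11 genes. Ptp10D held 4, fra 3, sli, Sema1a and Nrg 2 each, and Sema1b, Fas2, drl, Ptp99A, dock and ena 1 each.

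**Figure D4:**
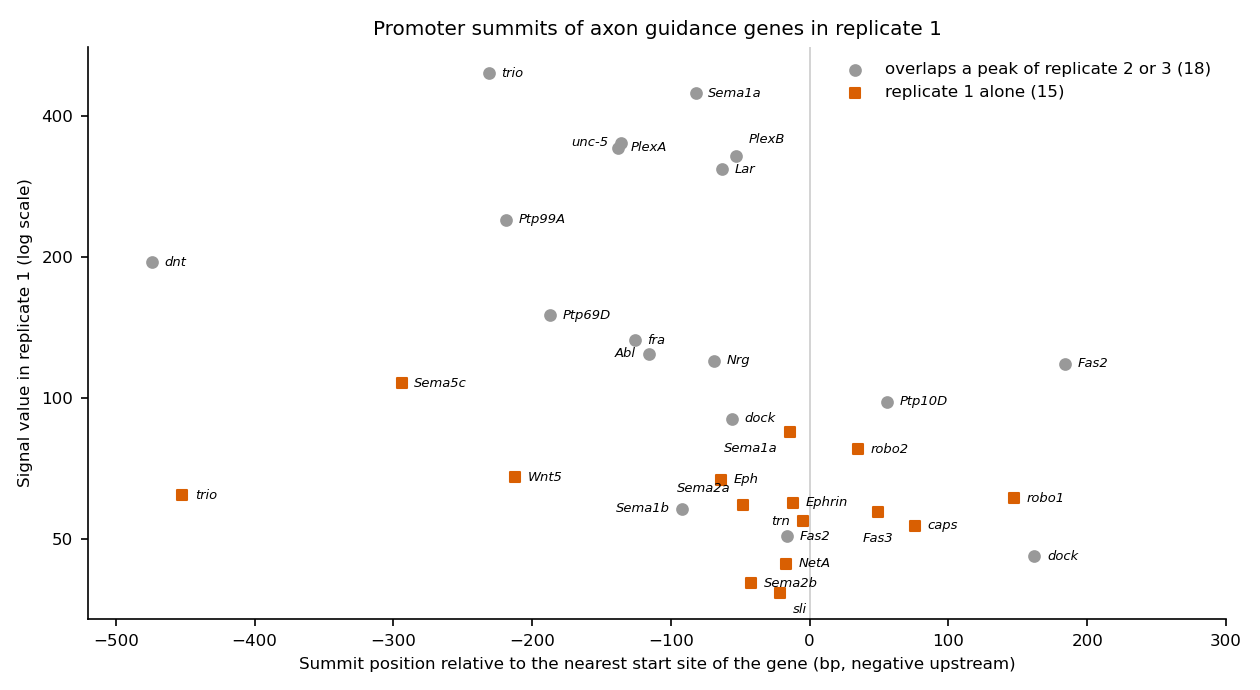
Promoter summits of axon guidance genes in replicate 1, by position relative to the nearest TSS of the gene (bp) and signal value (log axis). Orange squares overlap no thresholded peak of replicates 2 and 3 and grey circles overlap at least 1. The squares lie between 38.3 and 107 and the circles between 45.9 and 495.

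Of the 21 conservative promoter summits, 16 lay upstream of the nearest own TSS. The share over all genes was counted in replicate 1 only. There, 26.7% of member promoter summits in replicate 1 alone and 16.7% of the shared ones lay downstream. Over all genes these shares were 30.5% and 15.7%, close to those of the members. The letters TATCGATA, bound by the factor DREF, were found within 100 bp of the summit at 5 of the 21 (23.8%), those of PlexA, Nrg, Ptp69D, dock and Abl. They were found at 10.7% of all promoter summits and in 6.44% of windows of the same length around all protein-coding TSSs. No member gene body summit had them, against 0.644% of all gene body summits outside promoters. The shorter CGATA, which is contained in TATCGATA and is known as the core of sites of the insulator protein BEAF-32, was found at 12 of 21 promoter summits (57.1%) and 19 of 120 gene body summits (15.8%). Its shares were 44.3% and 20.5% over all such summits and 37.1% over TSS windows.

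The remaining motifs were counted in the same windows. The TATA box letters TATAAA were found at 4 of 21 promoter (19.0%) and 48 of 120 gene body summits (40.0%), against 37.4% and 38.0% of all such summits and 26.9% of TSS windows. The E-box CAGCTG was at 1 promoter and 7 gene body summits (4.76% and 5.83%), against 11.2% and 5.40% of all such summits and 13.4% of TSS windows. The GAGA factor letters GAGAGAG were at 1 and 3 (4.76% and 2.50%), against 2.97%, 2.40% and 4.68%. The core of promoter Motif 1, GGTCACAC, was at 0 and 3 (0% and 2.50%), against 6.45%, 0.446% and 5.68%. The Zelda site CAGGTAG was at none, against 0.661%, 0.842% and 1.08%. Both strands were searched. Within 50 bp of the summit, the member summits of both kinds with TATCGATA numbered 3 in place of 5, and those with CGATA 17 in place of 31. The G+C content of the windows averaged 39.4% ± 7.05 (SD over 21 windows) at member promoter summits and 34.0% ± 6.27 (120 windows) at gene body summits, against 35.9% ± 7.04 at all promoter summits and 34.9% ± 6.94 at all gene body summits outside promoters.

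A second list of 39 genes of the same pathways (40 symbols, of which Cadn was not found), which holds further receptors, adhesion molecules and cytoplasmic proteins, was counted in the same way. Promoter summits were found in 21 of them in the conservative list and in 28, 19 and 19 in the replicates (22 ± 5.20, SD, n = 3). The replicate shares were 71.8%, 48.7% and 48.7%, against 40.3%, 32.0% and 32.8% of all genes. For the axon guidance genes they were 74.4%, 30.8% and 41.0%, so the replicate 1 shares of both lists were close. Gene body summits were found in 21 genes of the second list (53.8%, as at the promoters). At promoters the share of all genes was 36.4%. In gene bodies it was 12.9% of all genes and 68.7% of those of at least 20 kb. These gene body shares are not matched for length. The median length was 16.8 kb in the second list, 31.7 kb in the axon guidance genes and 37.2 kb in genes of at least 20 kb. Per 100 kb the second list held 6.51 gene body summits in the conservative list and 6.44, 5.29 and 3.80 in the replicates. Each value was below that of the axon guidance genes and above that of the genes of at least 20 kb. Promoter summits were in all 3 replicates at 17 genes of the second list (43.6%), against 28.5% of all genes. They were in replicate 1 and neither other replicate at 7 (17.9%), against 13 of the 39 above and 7.22% of all genes.

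The strongest promoter summits of this second list exceeded those of the guidance receptors and ligands. Mtl, a Rac-like GTPase, had a signal value of 5631 at rank 17. Ten-m, a teneurin of synaptic partner matching, had 2201, RhoGAP93B, a GTPase-activating protein linked to Robo, had 1602, and the Src-family kinase gene Src64B had 1565. All 4 had a promoter summit in every replicate.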

How the data were processed

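The peak lists came from ChIP-seq of whole row-GFP embryos, and per the labels coordinates are dm6. The deposited lists give each peak a signal value, the enrichment from the authors' caller, and the ranked lists also a −log10 of the global IDR. Per the file headers the replicate lists were derived from a replicate and a control, and the series lists from alignments of all 3 replicates, so replicate 3 is not independent of the conservative list. Which replicates the conservative list ranks was read from its copied intervals. Neither the aligner nor the peak caller is given in the sources used here, and depth is unknown.

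Computed here with Python 3.11.15 and numpy 2.4.6 (plots, matplotlib 3.10.9): summits were start plus offset, assigned to Ensembl release 115 genes (BDGP6.54) on the arms, and peaks in 2 lists were shared when they overlapped by at least 1 bp. A site was in replicate 1 alone when it overlapped no thresholded peak of replicates 2 and 3. The assignment was tested on made-up genes and peaks with known answers. The members and the second gene list were chosen with earlier results of these data known. Named were each member with a promoter summit in the conservative list, the 10 strongest gene body summits, the 3 members with most of them, each site in replicate 1 alone, members with no summit, and 4 genes of the second list. Sequences are from the 3 strongest promoter and the strongest gene body summits outside 2R. The sequence of a site in replicate 1 alone is not reported here. Other genes and sites were named after their values were seen.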

Additional observations from a re-analysis of the deposited data

How the results depend on the processing

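Counts of members with a promoter summit stayed within 1.5 times the 16 of the conservative list in 10 of 12 alternatives, but were 29 in the replicate 1 list and 26 in the pooled list. Members with a gene body summit stayed so in 9 of 10, with 16 among the strongest 5000 peaks. Gene body summits were 37 among the strongest 5000 peaks, 67 in the replicate 3 list and 56 when listed in all 3 replicates. The share of all protein-coding genes with a promoter summit was 30.7% within 250 bp, 28.2% with the nearest TSS only, 25.4% among the strongest 5000 peaks, 28.7% for peaks in all 3 replicates and 42.7% in the pooled list. Sites in replicate 1 alone numbered 9 when absent also from the ranked lists, 0 among the strongest 5000 peaks, and between 47 and 56 when 1 of the other replicates was left out. Of the counts for single genes, together with motif counts, 456 stayed within 1.5 times and 172 moved. With 50 bp in place of 100 bp on each side, member summits with TATCGATA fell from 5 to 3, with CGATA from 31 to 17, with GGTCACAC from 3 to 1 and with GAGAGAG from 4 to 1. Without replicate 1 or 2, members with a promoter summit were 13 and 19, members with a gene body summit 29 and 27, and gene body summits 106 and 101. In these lists 35.6% and 37.5% of all protein-coding genes had a promoter summit. The lists used here without a replicate leave it out of the ranked pair, while all derive from alignments of the 3 replicates, so none fully leaves a replicate out. The conservative list is the one whose pair lacks replicate 3. Stricter settings keep fewer peaks or a narrower window by construction, and the pooled list holds more peaks; for the single replicates the cause was not tested. For the second gene list all 5 alternatives, and for the motifs the window of 50 bp, were chosen after seeing the data, and the counts of the second list were between 19 and 28. No paired analysis was possible because there is a single group.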
